A study of Sus scrofa with 5 samples.

Results

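MicroRNA (miRNA) levels in pig embryoid bodies (PEBs) were compared with those in pig fetal fibroblasts (PFFs), the comparison between the differentiating aggregates of a pluripotent-type line and an established somatic cell culture. The comparison covers 295 of the 411 mature miRNA names in the deposited table, chosen as those with 10 or more reads in either library. PEBs were aggregated by hanging drop, without cytokines, from cells of an embryonic stem cell-like line (ES-like cells) at passage 19. PFFs were cultured from fetuses whose head, limbs and organs had been removed and were taken at passage 9. The other libraries of the series, 1 of ES-like cells and 2 of parthenogenetic blastocysts (BL_1 and BL_2), stand here only as background. ES-like colonies had been grown on mitomycin C-treated mouse embryonic fibroblasts and were detached from these feeder cells before aggregation. A mature miRNA with the same sequence in mouse and pig is counted alike, so reads of carried-over feeder cells would not be distinguished, and their part in any level was not tested. The sample sheet of the study lists the ES-like cells and PEBs as XX and the PFFs as XY, and sex, donor animal, culture medium and passage cannot be told apart from cell type in this pair. Its sheet of read totals also lists the PFF column's total for ES-like cells and the reverse. Libraries were assigned here by the column names that the submitters placed in the sample titles. The miR-17 and miR-106a cluster members listed below took 15.2% of the reads in the library labelled ES-like and 0.993% in the library labelled PFF.

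miRNAs are short RNAs cut from hairpin precursors, and each hairpin can release a 5p and a 3p strand, or arm. The mature strand guides silencing proteins to partly complementary messenger RNAs, which lowers their translation and stability. Members of a family share the guiding bases near the 5′ end, and neighbouring hairpins are often transcribed together as a cluster. Some miRNAs are known from single tissues, such as miR-122 in hepatocytes and miR-206 in skeletal muscle, while miR-21, miR-143 and miR-145 are abundant in fibroblasts and smooth muscle. Embryoid bodies are aggregates in which pluripotent cells start to form derivatives of the germ layers. In such mixed material, fewer cells of a type and less of an RNA per cell cannot be told apart.

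The PEB library held 15849954 mature miRNA reads and the PFF library 27071931, 1.71 times as many. Levels are given as reads per 1000000 mature miRNA reads of a library (RPM). A name without a read can still be present at up to 0.189 RPM in PEBs and 0.111 RPM in PFFs, the level of 3 reads. Each cell type had 1 library, so no difference below has a replicate check and none was tested. The 95% intervals given for ratios (exact, conditional on the summed reads) and shares (Wilson) cover counting error only and hold no variation between libraries. They also treat reads as independent molecules, which reads are not, so the intervals can be too narrow.

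Read numbers are sums over the precursor rows of a name. Of the 55 compared names with more than 1 row, 26 had exactly the same number in every row in both libraries (1 of them, ssc-miR-369, from a repeated row), and 34 had rows within 0.5% of each other. The same reads may therefore enter such a sum 2 or 3 times. The level is then too high by up to that factor, and its counting interval too narrow. The library totals then hold repeats too. With the largest row of each name and names of the same reads once, 72.4% of the PEB total and 85.6% of the PFF total remained. On those totals, names with a single row had higher shares in both libraries and higher ratios of PEBs over PFFs. For ssc-let-7c the RPM ratio was 5.88 in place of 4.97. Among the names described below, equal rows were found for ssc-miR-9 (3 rows) and, with 2 rows, for ssc-miR-20b, ssc-miR-34c, ssc-miR-124a, ssc-miR-133a-3p, ssc-miR-196b-5p, ssc-miR-196b-3p, ssc-miR-216, ssc-miR-217, ssc-miR-363, ssc-miR-365-3p, both arms of ssc-miR-345 and ssc-miR-490-5p. Rows that were not equal but within 0.5% were found, among others, for ssc-miR-199a-5p, ssc-miR-30c-5p and ssc-miR-181a, with 2 rows each. A ratio of 2 such sums changes less, but not one set against the limit of 3 reads, where the other library has no read.

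Both libraries were led by ssc-miR-21, which is widespread in proliferating and stromal cells. It took 18.9% of the PEB reads and 52.3% of the PFF reads, each with 95% bounds that round to the same value, against 15.5% in ES-like cells. Its level was 188743 RPM in PEBs and 522808 RPM in PFFs, 2.77-fold higher in PFFs. This 1 name held over 50% of the PFF reads, while 6 names were needed to reach 50% in PEBs. For 90% of the reads, 18 names were needed in PFFs and 39 in PEBs. The 10 most abundant names held 83.4% of the PFF reads and 63.0% of the PEB reads. The effective number of names, the exponential of the Shannon entropy of the shares, was 33.2 in PEBs and 9.66 in PFFs. With ssc-miR-21 left out it was 41.3 and 27.2, so the PEB library remained the more even of the pair by this measure.

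**Figure D1:**
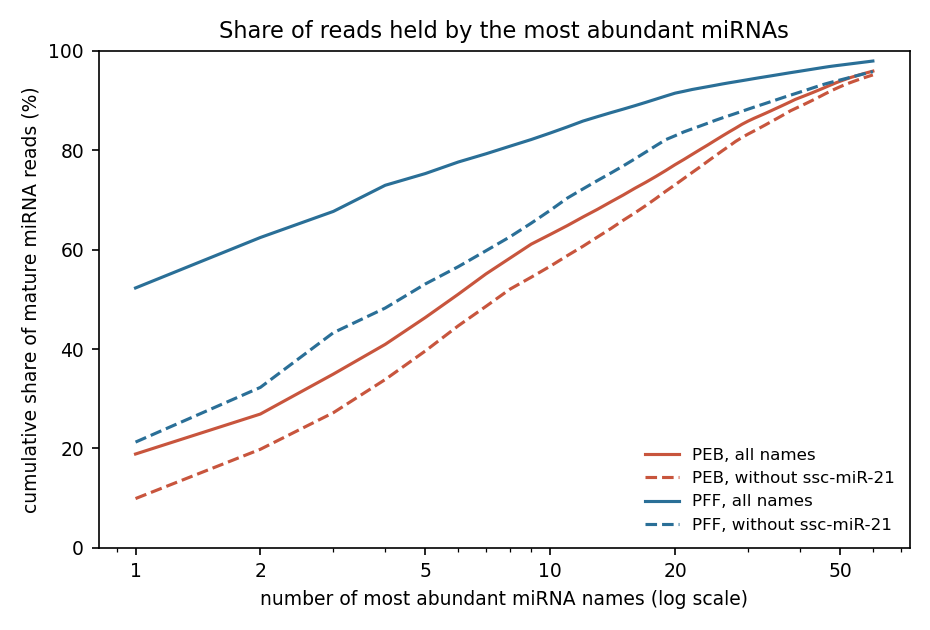
Cumulative percent of the mature miRNA reads (vertical axis) held by the most abundant names, in order of rank (horizontal axis, log scale), for the PEB and PFF libraries, with dashed curves for totals without ssc-miR-21. The PFF curve starts at 52.3% with ssc-miR-21 and reaches 90% at 18 names, and the PEB curve starts at 18.9% and reaches 90% at 39 names.

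Of the 10 most abundant names of each library, 6 were the same: ssc-miR-21, ssc-miR-199b-3p, ssc-miR-199a-3p, ssc-miR-148a-3p, ssc-let-7f and ssc-miR-199a-5p. The other 4 in PEBs were ssc-miR-122 at 54096 RPM, ssc-miR-92a at 46699 RPM, ssc-miR-103 at 28078 RPM and ssc-miR-26a at 19456 RPM. Their levels in PFFs were 4.14, 6544, 7990.1 and 5724 RPM. The other 4 in PFFs were ssc-miR-143-3p at 101507 RPM, ssc-miR-100 at 23148 RPM, ssc-miR-27b-3p at 13395 RPM and ssc-miR-125b at 13083 RPM, against 17917, 3576, 13583 and 17351 RPM in PEBs. Among the names of these sets, of which ssc-miR-199a-3p and ssc-miR-199b-3p hold nearly the same reads, ssc-miR-122 was the only one with fewer than 1000 reads in the other library.

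Because RPM values share a fixed total, the ssc-miR-21 reads of PFFs lower the RPM of every other name there. All other names together held 81.1% of the PEB reads and 47.7% of the PFF reads. Leaving ssc-miR-21 out of both totals lowered every log2 ratio of PEBs over PFFs by the same amount, 0.77, a factor of 1.70. TMM and median-of-ratios scaling moved the ratios by -0.80 and -0.76. The median log2 ratio over the 295 names was 0.76 by RPM and 0.00 without ssc-miR-21. Ratios below are by RPM where 1 is given, and where 2 are given the second is without ssc-miR-21. The counts of list members below are to be read against the shares over all names that follow, and a count near those shares is no result about a list. Lists and members were chosen with earlier results of these data known, so a count above those shares is not a test of a list. Some lists also hold both arms of 1 hairpin or names of 1 cluster, which may not be independent.

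By RPM, 132 of 295 names (44.7%) were more than 2-fold higher in PEBs, 49 (16.6%) were more than 2-fold higher in PFFs and 114 lay within 2-fold. Without ssc-miR-21, 101 of 294 names (34.4%) were more than 2-fold higher in PEBs and 79 (26.9%) in PFFs. Of these, 101 names were past 2-fold in PEBs on both scales, and 48 were past 2-fold in PFFs on both. A further 31 names were past 2-fold in PEBs by RPM only and 31 in PFFs only without ssc-miR-21, and 52 names changed from higher in PEBs to higher in PFFs. Ratios were larger on the PEB side, where 51 names exceeded 10-fold by RPM and 44 without ssc-miR-21. On the PFF side, 8 and 16 did. The 132 names higher in PEBs held 45.5% of the PEB reads and 8.38% of the PFF reads. The 49 names higher in PFFs held 66.4% of the PFF reads and 21.5% of the PEB reads.

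**Figure D2:**
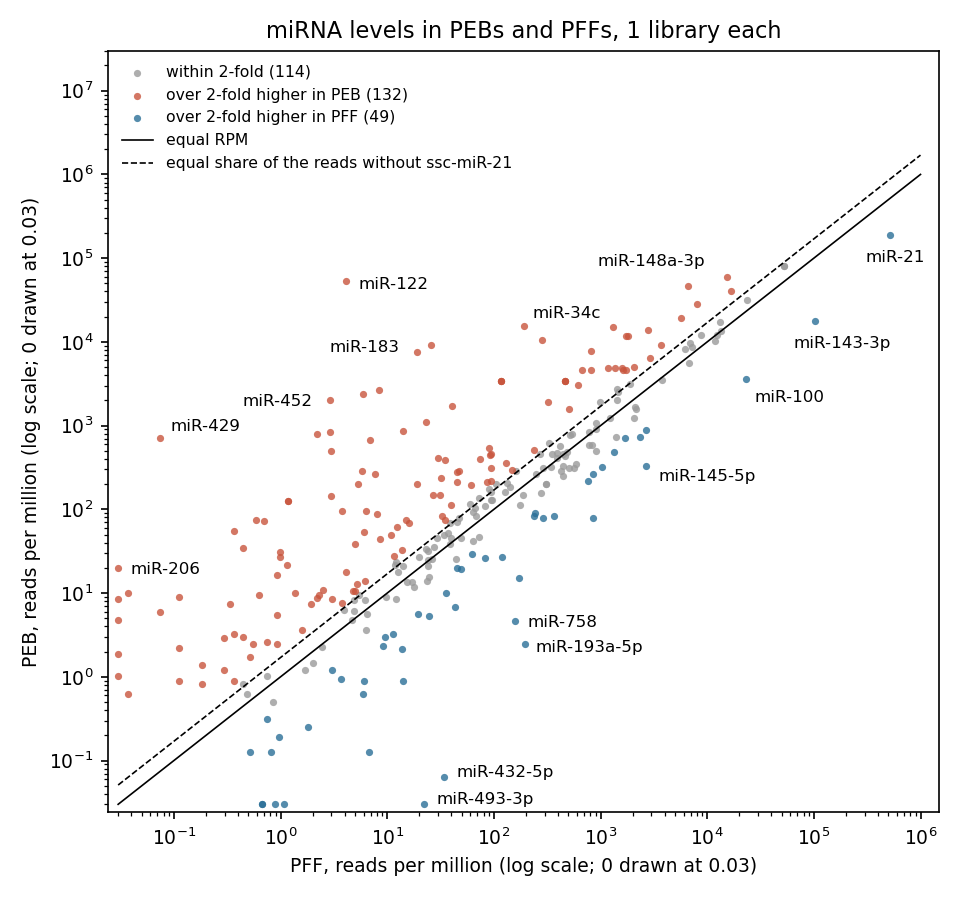
Level of each of the 295 names in PFFs (horizontal axis) and PEBs (vertical axis) in RPM on log scales, 1 point per name, with names at 0 drawn at 0.03. The solid line marks equal RPM and the dashed line equal shares without ssc-miR-21. More points lie over 2-fold above the solid line (132) than below it (49), and ssc-miR-122 and ssc-miR-429 stand farthest above.

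The names with the largest ratios in favour of PEBs, ssc-miR-122 and ssc-miR-429, are known from liver and from epithelia. All 5 names of the endoderm and liver list were over 2-fold higher in PEBs by RPM, and 4 were without ssc-miR-21, with median log2 ratios of 7.39 and 6.62. ssc-miR-122, the main miRNA of hepatocytes, had 857419 reads in PEBs and 112 in PFFs. It stood at 54096 RPM in PEBs, 4.14 RPM in PFFs, 101004 RPM in ES-like cells, 1767 RPM in BL_1 and 837 RPM in BL_2. The PEB level was 13076-fold that of PFFs (95% interval 10867 to 15880.4), or 7691-fold without ssc-miR-21, and ssc-miR-122 ranked 5 in PEBs and 225 in PFFs. The level in ES-like cells, the source of the PEBs, was higher still than in the PEBs themselves. ssc-miR-192, known from intestine, liver and kidney, had 42009 reads in PEBs and 228 in PFFs, a 315-fold difference (185-fold without ssc-miR-21). Its cluster partner ssc-miR-194a had 7946 reads in PEBs and 81 in PFFs (168-fold and 98.6-fold). ssc-miR-215, of the same family as ssc-miR-192, had 2257 reads in PEBs and 81 in PFFs (47.6-fold and 28-fold). The fifth member, ssc-miR-194b-5p, had only 39 and 25 reads and ratios of 2.66 and 1.57.

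Of the epithelial list, 2 names were in the table and both were higher in PEBs on both scales. ssc-miR-429, a member of the miR-200 family that represses inducers of the mesenchymal state, had 11376 reads in PEBs and 2 in PFFs. Its ratio was 9715 by RPM, with a counting interval from 2689 to 80231 because the PFF level rests on 2 reads, and its ES-like level was 1199 RPM against 718 RPM in PEBs. ssc-miR-205, known from stratified epithelia, had 1136 reads in PEBs and 19 in PFFs (102-fold and 60.1-fold). The other names of this list, ssc-miR-200a, ssc-miR-200b, ssc-miR-200c, ssc-miR-141, ssc-miR-203a and ssc-miR-203, were not among the names of the table used here.

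The 3 names of the miR-183, miR-96 and miR-182 cluster, expressed in sensory epithelia and in pluripotent cells, were higher in PEBs by nearly the same ratio. ssc-miR-183 had 121178 reads in PEBs and 515 in PFFs, ssc-miR-182 had 146020 reads in PEBs and 702 in PFFs, and ssc-miR-96-5p had 12531 reads in PEBs and 59 in PFFs. Their RPM ratios were 402, 355 and 363, and 236, 209 and 213 without ssc-miR-21. Both names of the neighbouring hairpins miR-452 and miR-224 were also higher in PEBs on both scales. ssc-miR-452 had 32037 reads in PEBs and 78 in PFFs, and ssc-miR-224 had 13181 reads in PEBs and 78 in PFFs. They were 702-fold and 289-fold higher in PEBs (413 and 169.8 without ssc-miR-21). ssc-miR-146b, whose family restrains innate immune signalling, had 37869 reads in PEBs and 162 in PFFs, a 399-fold difference (235-fold without ssc-miR-21). Among the 10 largest ratios of names with 1000 or more reads in PEBs, only ssc-miR-146b had a higher summed level in PEBs (2389 RPM) than in ES-like cells (599 RPM). With the largest row of each name and names of the same reads once, ssc-miR-182 was also slightly higher in PEBs (12729.5 RPM) than in ES-like cells (12282.8 RPM). ssc-miR-146a-5p, a relative of ssc-miR-146b, had 3216 reads in PEBs and 143 in PFFs and 49.1 RPM in ES-like cells.

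**Figure D3:**
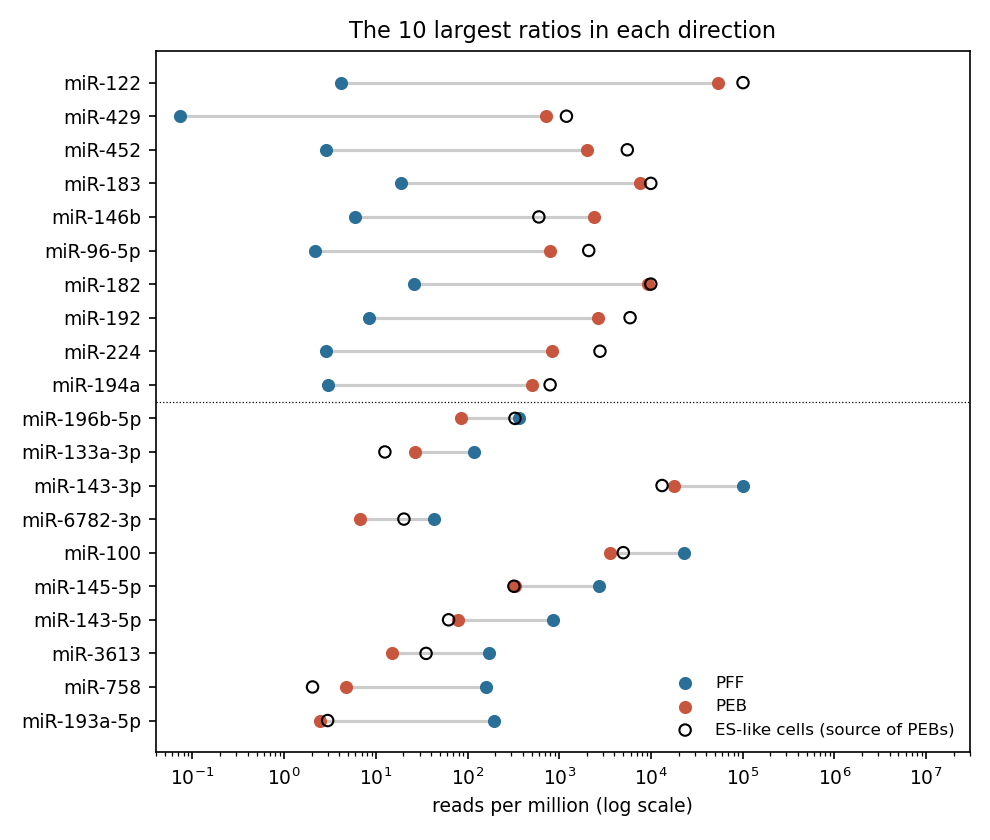
Level in RPM (horizontal axis, log scale) of the 10 names with the largest RPM ratio in each direction among those with 1000 or more reads in the higher library, with PEBs, PFFs and ES-like cells as points. Above the dotted line PEBs exceed PFFs, from 168-fold for miR-194a to 13076-fold for miR-122, and below it PFFs exceed PEBs, from 4.38-fold for miR-196b-5p to 79.5-fold for miR-193a-5p.

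The polycistronic miR-17 and miR-106a clusters, which are highly expressed in pluripotent cells and promote cell cycle progression, were higher in PEBs throughout. All 11 names compared passed 2-fold on both scales, with median log2 ratios of 2.84 and 2.07. Together they took 7.87% of the PEB reads and 0.993% of the PFF reads, beside 15.2% in ES-like cells, 5.66% in BL_1 and 5.19% in BL_2. ssc-miR-92a, the most abundant of them, had 740171 reads in PEBs and 177147 in PFFs, and was 7.14-fold higher in PEBs (4.2-fold without ssc-miR-21). The names of the X-linked miR-106a cluster had the wider ratios. ssc-miR-106a had 13852 reads in PEBs and 381 in PFFs (62.1-fold and 36.5-fold). ssc-miR-20b had 27438 reads in PEBs and 1106 in PFFs (42.4-fold and 24.9-fold). ssc-miR-363 had 164902 reads in PEBs and 7580 in PFFs (37.2-fold and 21.9-fold), and ssc-miR-18b had 347 reads in PEBs and 31 in PFFs (19.1-fold and 11.2-fold). The other 6 names (ssc-miR-17-5p, ssc-miR-17-3p, ssc-miR-18a, ssc-miR-19a, ssc-miR-19b and ssc-miR-20a) lay between 4.78-fold and 7.39-fold, or 2.81-fold and 4.35-fold without ssc-miR-21. The miR-302 and miR-367 names, the best known miRNAs of human and mouse pluripotent cells, were not among the names of the table used here, and ssc-miR-371-5p had 8 and 5 reads, too few for the comparison. ssc-miR-371-5p stood at 30.9 RPM in ES-like cells, 324635 RPM in BL_1 and 296148 RPM in BL_2.

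The names higher in PFFs were led by abundant miRNAs of fibroblasts and smooth muscle. ssc-miR-143-3p, which with its cluster partner miR-145 promotes the contractile state of smooth muscle, had 283990 reads in PEBs and 2747983 in PFFs and ranked 11 in PEBs and 2 in PFFs. Its level was 17917 RPM in PEBs, 101507 RPM in PFFs and 13226 RPM in ES-like cells. It was 5.67-fold higher in PFFs by RPM and 9.63-fold higher without ssc-miR-21. ssc-miR-143-5p had 1251 reads in PEBs and 23053 in PFFs (10.8-fold and 18.3-fold higher in PFFs). ssc-miR-145-5p had 5192 reads in PEBs and 72867 in PFFs (8.22-fold and 14.0-fold). ssc-miR-145-3p had 4991 reads in PEBs and 13824 in PFFs, within 2-fold by RPM (1.62-fold higher in PFFs) and 2.76-fold higher there without ssc-miR-21.

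The miR-199 and miR-214 names, transcribed within dynamin genes in mesenchyme, lay closer to equality than both arms of miR-143 on both scales. ssc-miR-199a-3p was among the 4 most abundant names of both libraries, with 1274657 reads in PEBs and 1421725 in PFFs, and ssc-miR-199b-3p carried almost the same reads. It was 1.53-fold higher in PEBs by RPM and 1.11-fold higher in PFFs without ssc-miR-21. ssc-miR-199a-5p (504332 reads in PEBs and 639861 in PFFs) and ssc-miR-214 (12268 reads in PEBs and 13968 in PFFs) also lay within 2-fold on both scales and changed side between them. ssc-miR-199b-5p, which tells the b gene apart, had 7715 reads in PEBs and 36185 in PFFs and was 2.75-fold and 4.67-fold higher in PFFs. Of the 9 names of miR-143, miR-145, miR-199 and miR-214, 4 passed 2-fold in PFFs by RPM and 5 without ssc-miR-21, and none in PEBs on either scale. Their median log2 ratios were -0.70 and -1.46. Over all names, 16.6% passed 2-fold in PFFs and 44.7% in PEBs by RPM, and 26.9% and 34.4% without ssc-miR-21. The list took 21.3% of the PEB reads, 23.6% of the PFF reads, 8.48% of the ES-like reads, 0.0466% of the BL_1 reads and 0.0340% of the BL_2 reads. These sums hold the reads of ssc-miR-199a-3p again under ssc-miR-199b-3p. With ssc-miR-199b-3p left out of the list and the totals as they stand, the shares were 13.2% in PEBs, 18.4% in PFFs and 5.83% in ES-like cells. ssc-miR-199a-3p is itself a sum of 3 rows. With only the largest row of each name, and names of the same reads once, the list took 8.80% in PEBs, 16.01% in PFFs and 3.98% in ES-like cells.

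ssc-miR-221-3p, ssc-miR-221-5p and ssc-miR-222, which target the cell cycle inhibitor p27, were 3.04-fold, 2.80-fold and 3.22-fold higher in PFFs, and 5.17-fold, 4.75-fold and 5.47-fold without ssc-miR-21. ssc-miR-222 had 5111 reads in PEBs and 28102 in PFFs, and ssc-miR-221-3p had 13978 reads in PEBs and 72583 in PFFs. The 3 ratios were thus close to each other. ssc-miR-100 differed from the other 4 names of the miR-99, miR-100 and miR-125 list, which are often transcribed beside let-7, with 56678 reads in PEBs and 626650 in PFFs, a level 6.47-fold higher in PFFs (11.0-fold without ssc-miR-21). ssc-miR-99a and ssc-miR-125b lay within 2-fold on both scales, and ssc-miR-99b and ssc-miR-125a were 2.19-fold and 3.13-fold higher in PEBs by RPM and within 2-fold without ssc-miR-21. ssc-miR-193a-5p had the largest ratio in favour of PFFs among names with 1000 or more reads there, with 39 reads in PEBs and 5296 in PFFs. It was 79.5-fold higher in PFFs (95% interval 58.1 to 112) and 135-fold higher without ssc-miR-21, and stood at 2.98 RPM in ES-like cells. It ranked 257 in PEBs and 97 in PFFs. ssc-miR-365-3p, of a hairpin often found near miR-193, had 3412 reads in PEBs and 20576 in PFFs (3.53-fold and 6.0-fold higher in PFFs). ssc-miR-3613 had 240 reads in PEBs and 4636 in PFFs (11.3-fold and 19.2-fold), and ssc-miR-6782-3p had 107 reads in PEBs and 1172 in PFFs (6.41-fold and 10.9-fold).

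By summed rows, 10 names had 10 or more reads in 1 library and no read in the other, and 9 did by the largest row, where ssc-miR-124a had 8 reads. In PEBs these were ssc-miR-206 (317 reads), ssc-miR-208b (133), ssc-miR-326 (76), ssc-miR-490-5p (30) and ssc-miR-124a (16). Against a limit of 3 reads in the PFF library, ssc-miR-206 was at least 180.5-fold higher in PEBs, ssc-miR-208b at least 75.7-fold and ssc-miR-326 at least 43.3-fold, or 106, 44.5 and 25.5 without ssc-miR-21. These values leave out counting error, and the lower 95% counting limits of the RPM ratios were smaller, at 146, 60.7 and 34.3. In PFFs they were ssc-miR-493-3p (595 reads), ssc-miR-9860-5p (29), ssc-miR-196b-3p (24), ssc-miR-487b (18) and ssc-miR-7135-3p (18). Against a limit of 3 reads in the PEB library, ssc-miR-493-3p was at least 116-fold higher in PFFs (197-fold without ssc-miR-21). ssc-miR-9860-5p, ssc-miR-487b and ssc-miR-7135-3p were at least 3.51-fold to 5.66-fold higher. These PFF values leave out counting error as well. The 24 reads of ssc-miR-196b-3p are 2 equal rows of 12, and with the largest row of each name and names of the same reads once it was at least 1.98-fold higher, just short of 2-fold.

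miRNAs known from muscle were split between the libraries. ssc-miR-206, specific to skeletal muscle, and ssc-miR-208b, encoded in a cardiac and slow-muscle myosin gene, were at 20.0 RPM and 8.39 RPM in PEBs, and at 20.1 RPM and 4.24 RPM in ES-like cells. ssc-miR-133a-3p, shared by skeletal and heart muscle, had 422 reads in PEBs and 3218 in PFFs and was higher in PFFs by 4.46-fold and 7.59-fold. ssc-miR-1, its usual partner, had 7969 reads in PEBs and 24321 in PFFs, 1.79-fold higher in PFFs by RPM and 3.04-fold without ssc-miR-21. ssc-miR-499-5p lay within 2-fold on both scales. In all, 2 of the 7 muscle names compared were higher in PEBs and 2 in PFFs by RPM, and 2 and 4 without ssc-miR-21. The shares over all names were 44.7% and 16.6% by RPM, and 34.4% and 26.9% without ssc-miR-21. The summed level of the list was 646 RPM in PEBs and 1096 RPM in PFFs.

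Of the 10 neural names compared, 9 were over 2-fold higher in PEBs by RPM and 7 without ssc-miR-21, and none was over 2-fold higher in PFFs on either scale. Median log2 ratios were 2.77 and 2.01. Over all names, 44.7% were over 2-fold higher in PEBs by RPM and 34.4% without ssc-miR-21, and 16.6% and 26.9% in PFFs. ssc-miR-9, expressed in neural progenitors, had 53454 reads in PEBs and 3150 in PFFs, a 29.0-fold difference (17-fold without ssc-miR-21), and was at 3372 RPM in PEBs, 116 RPM in PFFs and 730.2 RPM in ES-like cells. ssc-miR-9-1 and ssc-miR-9-2 held the same reads, so this 1 measurement stands for 3 of the 9 names. Each of its 3 rows held 17818 reads in PEBs and 1050 in PFFs. With the largest row of each name and names of the same reads once, ssc-miR-9 was at 1553 RPM in PEBs and 45.3 RPM in PFFs. ssc-miR-138 had 1181 reads in PEBs and 16 in PFFs (126-fold and 74.2-fold), and ssc-miR-128 had 77510 reads in PEBs and 32134 in PFFs (4.12-fold and 2.42-fold). In ES-like cells ssc-miR-138 stood at 186 RPM and ssc-miR-128 at 9487 RPM, above their PEB levels of 74.5 and 4890.2 RPM, while ssc-miR-9 was lower there than in PEBs. ssc-miR-124a, the most abundant miRNA of mature neurons, had only 16 reads in PEBs and 0 in PFFs. ssc-miR-212 was 5.12-fold and 3.01-fold higher in PEBs. ssc-miR-132 and ssc-miR-137 passed 2-fold by RPM only (2.38-fold and 3.29-fold), and ssc-miR-219a, a miRNA of oligodendrocytes, was within 2-fold on both scales.

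Blood cell miRNAs were low in both libraries, with summed levels of 252 RPM in PEBs, 283 RPM in PFFs and 171 RPM in ES-like cells. By number, 6 of 8 names were over 2-fold higher in PEBs on both scales, against 44.7% and 34.4% over all names. In PFFs, 0 of these blood cell names were over 2-fold higher by RPM and 1 was without ssc-miR-21. Most of them are rare. With a pseudocount of 10 RPM, 2 of 8 were over 2-fold higher in PEBs, against 30.8% of all names compared that way. ssc-miR-142-5p and ssc-miR-142-3p are restricted to blood cells. The first had 885 reads in PEBs and 10 in PFFs and the second 428 reads in PEBs and 27 in PFFs. They stood at 55.8 RPM and 27 RPM in PEBs, and at 11.0 RPM and 6.75 RPM in ES-like cells. ssc-miR-155-5p, induced in activated immune cells and also present in fibroblasts, carried most of the PFF sum, with 2473 reads in PEBs and 7549 in PFFs, and was 1.79-fold higher in PFFs by RPM and 3.04-fold without ssc-miR-21. The red cell miRNAs ssc-miR-144 and ssc-miR-451 had 14 and 13 reads in PEBs and 3 and 5 in PFFs. Their RPM ratios of 7.97 and 4.44 had counting intervals of 2.22 to 43.3 and 1.49 to 15.9. The endothelial ssc-miR-126-3p had 4550 reads in PEBs and 4363 in PFFs, within 2-fold on both scales (1.78-fold and 1.05-fold higher in PEBs), and ssc-miR-126-5p was 2.46-fold and 1.45-fold higher there.

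ssc-miR-217 and ssc-miR-216, known from pancreatic acinar cells, were low but higher in PEBs on both scales. ssc-miR-217 had 552 reads in PEBs and 12 in PFFs, and ssc-miR-216 had 94 reads in PEBs and 2 in PFFs. On the RPM scale ssc-miR-217 was 78.6-fold higher in PEBs (46.2-fold without ssc-miR-21) and ssc-miR-216 80.3-fold (counting interval 21.6 to 673, 47.2-fold without ssc-miR-21). By the largest row ssc-miR-216 had 47 and 1 reads, with a counting interval from 16.2 to 3829. Both were lower in ES-like cells, at 1.88 RPM and 0.628 RPM, than in PEBs, at 34.8 RPM and 5.93 RPM. ssc-miR-375, an islet miRNA, was not among the names of the table used here.

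miRNAs encoded within the Hox gene clusters, which set positional identity along the body, differed in both directions. ssc-miR-196a had 10557 reads in PEBs and 188 in PFFs and was 95.9-fold higher in PEBs (56.4-fold without ssc-miR-21). The closely related ssc-miR-196b-5p had 1330 reads in PEBs and 9956 in PFFs and was 4.38-fold and 7.45-fold higher in PFFs. ssc-miR-10a-5p had 187414 reads in PEBs and 46600 in PFFs (6.87-fold and 4.04-fold higher in PEBs). ssc-miR-10b had 130148 reads in PEBs and 168116 in PFFs, within 2-fold on both scales, 1.32-fold higher in PEBs by RPM and 1.29-fold higher in PFFs without ssc-miR-21. The opposite directions of the 2 miR-196 names did not depend on the scale. Over the list, 4 of 7 names were higher in PEBs and 2 in PFFs by RPM, and 3 and 2 without ssc-miR-21. The shares over all names were 44.7% and 16.6% by RPM, and 34.4% and 26.9% without ssc-miR-21. The list counts without ssc-miR-21 lie near those shares. Among the PFF calls is that of ssc-miR-196b-3p, with no read in PEBs and 2 equal rows of 12 in PFFs. With the largest row of each name and names of the same reads once it fell just short of 2-fold, and 1 of 7 names was then over 2-fold higher in PFFs.

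**Figure D4:**
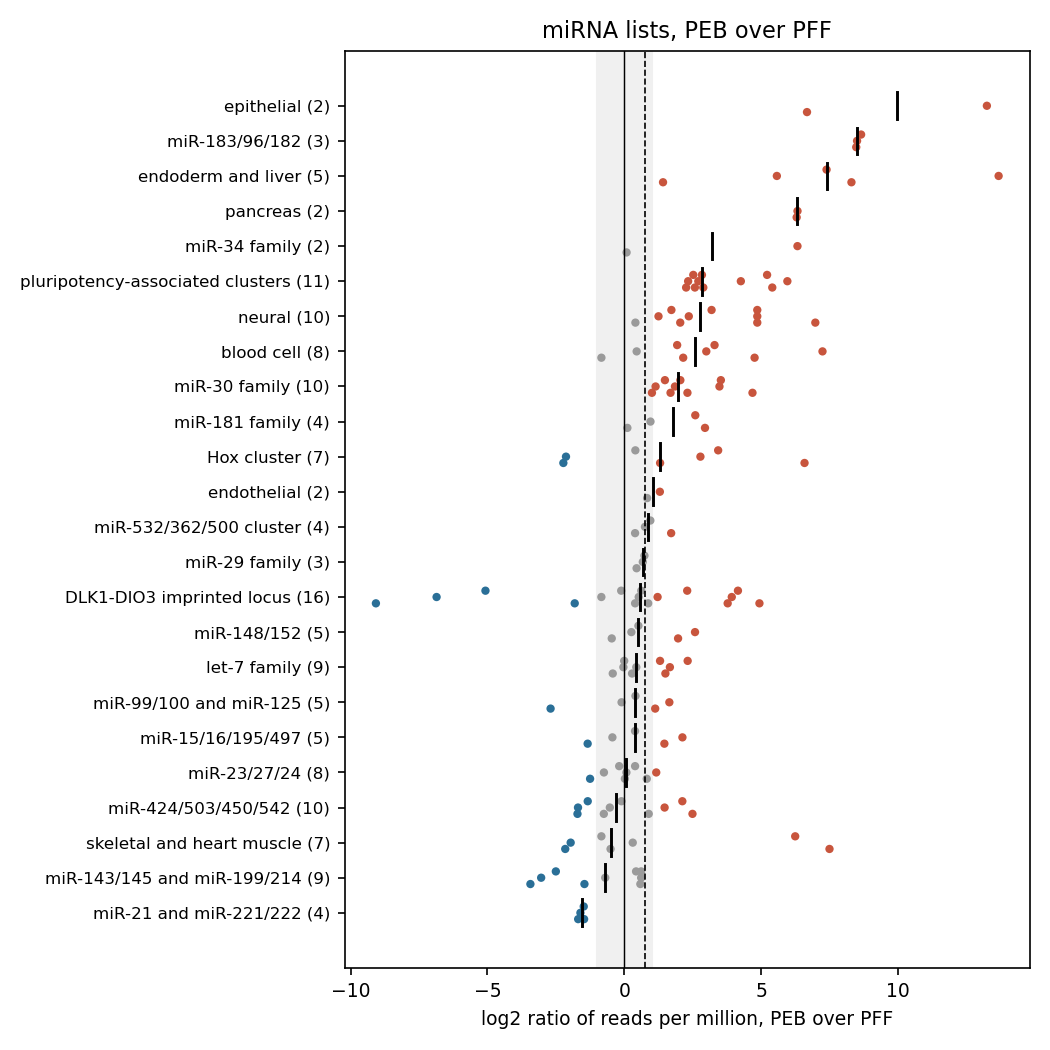
Log2 ratio of PEBs over PFFs by RPM (horizontal axis) for each compared member (points, coloured past 2-fold) of the 24 lists of miRNAs (rows, number compared in brackets). Vertical bars mark list medians, the grey band marks 2-fold either way, and the dashed line marks equality without ssc-miR-21. The pluripotency-associated clusters, endoderm and liver, pancreas, epithelial, miR-183 to miR-182 and miR-30 rows lie wholly above 2-fold in PEBs by RPM, and the row of miR-21, miR-221 and miR-222 lies wholly past 2-fold in PFFs.

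The let-7 family, which rises as cells leave pluripotency and restrains growth-promoting genes, was spread around equality. Its summed share was 8.0% of the PEB reads, 4.77% of the PFF reads and 2.92% of the ES-like reads. By RPM 4 of 9 names were over 2-fold higher in PEBs, near the 44.7% over all names, and 0 in PFFs. Without ssc-miR-21 the numbers were 1 and 1, and the median log2 ratio moved from 0.44 to -0.33. ssc-let-7c, with 48481 reads in PEBs and 16655 in PFFs, was higher in PEBs on both scales (4.97-fold and 2.92-fold). ssc-let-7f, the most abundant member in both libraries, had 648562 reads in PEBs and 448234 in PFFs (2.47-fold and 1.45-fold higher in PEBs). ssc-let-7a had 190649 reads in PEBs and 333416 in PFFs, within 2-fold on both scales (1.02-fold and 1.74-fold higher in PFFs), and ssc-miR-98 was 2.28-fold higher in PFFs without ssc-miR-21.

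The miR-30 family, abundant in epithelial and differentiated cells, was higher in PEBs for all 10 names by RPM, and for 6 past 2-fold without ssc-miR-21, with the other 4 above equality but within 2-fold. ssc-miR-30a-5p had 238120 reads in PEBs and 35288 in PFFs (11.5-fold and 6.78-fold), and ssc-miR-30d had 217849 reads in PEBs and 75269 in PFFs (4.94-fold and 2.91-fold). The list took 3.92% of the PEB reads and 0.733% of the PFF reads. ssc-miR-34c, a p53-induced miRNA that is also high in ciliated and germ cells, had 242472 reads in PEBs and 5164 in PFFs and was 80.2-fold and 47.2-fold higher in PEBs. Its relative ssc-miR-34a had 4891 reads in PEBs and 7890 in PFFs, within 2-fold on both scales. ssc-miR-148a-3p, which targets a maintenance DNA methyltransferase, had 946939 reads in PEBs and 414622 in PFFs. It was 3.90-fold and 2.29-fold higher in PEBs, while ssc-miR-152, of the same family, was 1.38-fold higher in PFFs by RPM and 2.34-fold without ssc-miR-21. Of the 5 names of the miR-148 and miR-152 list, 2 were over 2-fold higher in PEBs on both scales, near the shares of all names (44.7% and 34.4%), and 0 by RPM and 1 without ssc-miR-21 in PFFs.

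Other families were divided or near equality. ssc-miR-181c and ssc-miR-181d-5p were 7.71-fold and 6.03-fold higher in PEBs (4.54 and 3.55 without ssc-miR-21), while the more abundant ssc-miR-181a and ssc-miR-181b lay within 2-fold on both scales. With the largest row of each name and names of the same reads once, ssc-miR-181a was past 2-fold, at 2.29-fold higher in PEBs. The 3 miR-29 names, which repress collagen genes, lay within 2-fold on both scales. ssc-miR-29a had 50355 reads in PEBs and 51696 in PFFs, 1.66-fold higher in PEBs by RPM and 1.02-fold higher in PFFs without ssc-miR-21. Of the 8 names of miR-23, miR-27 and miR-24, ssc-miR-23a was 2.38-fold and 4.05-fold higher in PFFs and ssc-miR-27a 1.68-fold and 2.85-fold. ssc-miR-24-2-5p was 2.24-fold higher in PEBs by RPM only, and the other 5 lay within 2-fold on both scales. In the list of miR-15, miR-16, miR-195 and miR-497, ssc-miR-15a was 2.53-fold and 4.30-fold higher in PFFs and ssc-miR-195 4.35-fold and 2.56-fold higher in PEBs. By RPM 2 of its 5 names were over 2-fold higher in PEBs and 1 in PFFs, near the 44.7% and 16.6% over all names. Without ssc-miR-21 the numbers were 1 and 2, beside 34.4% and 26.9% over all names. The names of the miR-532, miR-362 and miR-500 cluster lay within 2-fold on both scales except ssc-miR-500, 3.27-fold higher in PEBs by RPM and 1.93-fold without ssc-miR-21.

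In the X-linked list of miR-424, miR-503, miR-450 and miR-542, 3 of 10 names were higher in PEBs and 3 in PFFs by RPM. Without ssc-miR-21 the numbers were 2 and 5. The shares over all names were 44.7% and 16.6% by RPM, and 34.4% and 26.9% without ssc-miR-21. ssc-miR-450c-5p had 11621 reads in PEBs and 64148 in PFFs and ssc-miR-450b-5p had 4144 reads in PEBs and 23188 in PFFs, 3.23-fold and 3.28-fold higher in PFFs (5.49 and 5.57 without ssc-miR-21). ssc-miR-424-3p had 2371 reads in PEBs and 721 in PFFs, 5.62-fold and 3.30-fold higher in PEBs, and its other arm ssc-miR-424-5p had 2150 reads in PEBs and 1980 in PFFs, within 2-fold on both scales.

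The DLK1-DIO3 locus holds a large miRNA group expressed from the maternally inherited chromosome. Of its 16 names compared, 6 were higher in PEBs, 4 in PFFs and 6 within 2-fold by RPM, and 5 were higher in each without ssc-miR-21. Over all names, the PEB and PFF shares were 44.7% and 16.6% by RPM, and 34.4% and 26.9% without ssc-miR-21. ssc-miR-127 had 6438 reads in PEBs and 803 in PFFs (13.7-fold and 8.05-fold higher in PEBs), and ssc-miR-136 had 1521 reads in PEBs and 171 in PFFs (15.2-fold and 8.94-fold). ssc-miR-376a-5p had 484 reads in PEBs and 27 in PFFs (30.6-fold and 18-fold). ssc-miR-758 had 74 reads in PEBs and 4257 in PFFs and was 33.7-fold and 57.3-fold higher in PFFs. ssc-miR-432-5p had 1 read in PEBs and 922 in PFFs, a ratio of 539.8 with a counting interval of 96.6 to 21344. ssc-miR-493-3p was absent from the PEB reads and had 595 in PFFs, while ssc-miR-493-5p of the same hairpin had 773 and 917 reads. The names of this locus given here were thus far apart in both directions within the same pair of libraries.

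Neighbouring hairpins were grouped by RefSeq positions within 10 kb, for names with a single precursor row. The 26 such clusters held 78 names, and in 18 of them every name lay on the same side of equality by RPM, where 199 of all 295 names lay above it. Some clusters hold both arms of 1 hairpin. The median range of log2 ratios within a cluster was 1.21. In the cluster of miR-183, miR-96 and miR-182 the range was 0.18, in that of miR-221 and miR-222 it was 0.20, and in the part of the miR-17 cluster with single rows it was 0.63. The widest range, 13.0, was in the cluster of ssc-miR-127, ssc-miR-136 and ssc-miR-432-5p, and ssc-miR-206, which had no read in PFFs, and ssc-miR-133b spanned at least 8.0. Calls past 2-fold in both directions occurred in 3 clusters. These ranges do not change with the scale, but the side of equality does for names within 0.77 above it.

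Arms of the same hairpin were compared where both had 100 or more reads in PEBs or PFFs, which gave 46 pairs. A ratio of arms within a library does not depend on its total. The same arm was the higher in both libraries in 40 pairs, and the log2 ratio of the arms differed between the libraries by a median of 0.79. In 18 pairs it differed by 2-fold or more. The widest was miR-450b, with 4144 5p and 173 3p reads in PEBs against 23188 and 68 in PFFs, so the 3p arm was relatively 14.2-fold higher in PEBs. miR-193a had 39 and 10 reads in PEBs against 5296 and 162 in PFFs. miR-30c had 77562 and 1518 against 36770 and 101, and its 5p reads can come from more than 1 hairpin. miR-345 had 14 and 338 against 164 and 646, so its 3p arm was the higher in both. In miR-142 the higher arm changed, from 5p in PEBs with 67.4% of the pair's reads (95% interval 64.8 to 69.9) to 3p in PFFs with a 5p share of 27% (15.4 to 43.0). That PFF share rests on 10 and 27 reads.

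**Figure D5:**
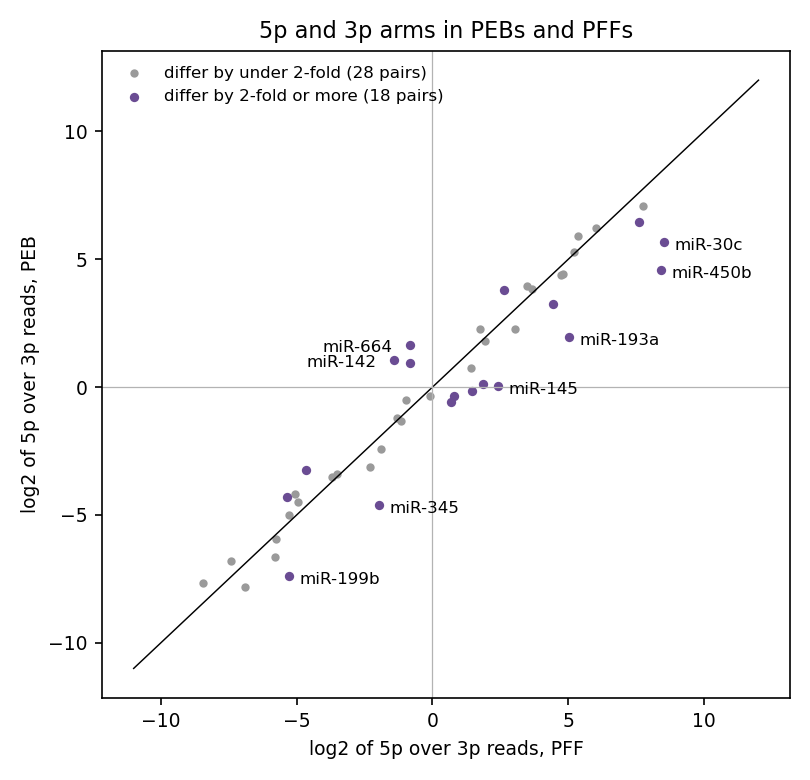
Log2 of 5p over 3p reads in PFFs (horizontal axis) and PEBs (vertical axis) for the 46 names with both arms, with the line of equal ratios. In 28 of the 46 pairs the ratios lie within 2-fold of the line, and the named pairs lie farther off. Of these, miR-450b and miR-193a lie below the line at the right, and miR-142 and miR-664 above it near the middle.

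Not every name is a separate measurement. The 66 names with more than 1 precursor row held 44.2% of the PEB reads and 22.0% of the PFF reads. With a minimum of 50 reads, 12 names in 5 groups had reads within 0.5% of another name in both libraries. These groups were miR-199a-3p and miR-199b-3p, the 3 miR-9 names, the 3 miR-218 names, miR-490 with miR-490-3p, and miR-129a-5p with miR-129b. With the largest precursor row in place of the sum and these 5 groups counted once each, 141 of 286 names were over 2-fold higher in PEBs and 45 in PFFs, and ssc-miR-21 took 26.1% of the PEB and 61.1% of the PFF total. In that setting ssc-miR-339, ssc-miR-339-5p and ssc-miR-4334-3p still stand as 3 names, although their largest rows agree within 0.5%. Near the threshold, the names just past 2-fold in PEBs were ssc-miR-30e-3p (2.01-fold), ssc-miR-301 (2.06-fold) and ssc-miR-139-5p (2.13-fold). Just past it in PFFs was ssc-miR-455-3p (2.11-fold), and just short of it ssc-miR-28-3p (1.93-fold). The counting interval of the ratio reached 2-fold for 13 of the 132 names higher in PEBs and 7 of the 49 higher in PFFs.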

How the data were processed

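Small RNA of 5 libraries was extracted with a miRNA isolation kit and sequenced from adapter-ligated libraries. According to the study's methods, the authors trimmed adapters, dropped reads that were short or lacked one, aligned the remainder to the pig genome, used Bowtie, SAMtools and HTSeq for quantification and split miRNAs into those in miRBase and predicted ones with miRDeep2. Which of these steps gave the deposited counts is not given in the sources used here. The submitters' processing notes name Cutadapt 1.10, Bowtie 1.1.1, SAMtools 1.2 and HTSeq 0.6.1p1 with build Sscrofa10.2. The authors deposited raw read counts per pair of mature name and precursor, and how reads that match several precursors were handled is not given in the sources used here. The deposited table of predicted loci was not used here.

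Counts were summed per mature name over 493 rows, 1 of them a repeat of another ssc-miR-369 row, and divided by the column total (15849954 reads in PEBs, 27071931 in PFFs) to give RPM. Names with 10 or more reads in PEBs or PFFs were compared, by RPM and without ssc-miR-21. A name was called at over 2-fold, and a count of 0 was replaced by a limit of 3 reads. With 1 library a side no test was run. Ratios have exact conditional binomial 95% intervals and shares Wilson intervals. The ratio and interval steps were tested on counts simulated per name, and the summing over precursor rows was not tested.

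Named miRNAs are the 10 most abundant in each library, the 10 largest ratios in each direction among names with 1000 or more reads in the higher library, members of 24 lists, names with no read in 1 library, and the 5 arm pairs that differ most. Members and lists were chosen with earlier results of these data known. The compared names in these lists numbered 151, and 144 were in none. Precursor neighbours came from RefSeq by name (315 of 382 precursor names matched). Alternatives were other scalings (edgeR 4.0.16 TMM, DESeq2 1.42.0 size factors), read minimums, a pseudocount of 10 RPM, a 4-fold threshold and other handling of repeated rows. Values were computed in Python 3.11.15 (pandas 2.3.3, scipy 1.17.1, numpy 2.4.6) and R 4.3.3.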

Additional observations from a re-analysis of the deposited data

How the results depend on the processing

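The comparison was recomputed under 13 other settings, of which the 2 that count names with the same reads once were chosen after seeing the data. The number of names over 2-fold higher in PFFs moved from 49 to 79 without ssc-miR-21, 80 with TMM, 80 with median-of-ratios factors and 100 with the 14 most abundant names of either library left out (87 then higher in PEBs). It was 28 with a pseudocount of 10 RPM and 24 at 4-fold. Leaving out the most abundant names also turned the median log2 ratio of endothelial names to -0.061, ssc-miR-30e-3p to -0.12, ssc-miR-301 to -0.082 and ssc-miR-139-5p to -0.039, by construction of the smaller totals. That setting changed the sign of 8 of 24 list medians, of which the endothelial was the one past 2-fold by RPM. Leaving out ssc-miR-21 alone changed the sign of 7, none of them past 2-fold. With a pseudocount of 10 RPM, 91 of 295 names (30.8%) were over 2-fold higher in PEBs, in place of 132 (44.7%). By list, these were 2 of 8 in place of 6 for blood cell and 6 of 10 in place of 9 for neural names. The miR-30 family had 7 of 10 in place of 10, and endoderm and liver 4 of 5 in place of 5. Pancreas had 1 of 2 in place of 2, endothelial 0 of 2 in place of 1 and muscle 1 of 7 in place of 2. The list of miR-15, miR-16, miR-195 and miR-497 had 0 of 5 in place of 2. The list of miR-23, miR-27 and miR-24 had 0 of 8 in place of 1, and that with miR-424 2 of 10 in place of 3. PEB counts of the other lists did not change. The read minimums, the 4-fold threshold and the repeated row leave ratios unchanged or nearly so. Under the other 8 settings, 130 of 944 values for the 120 named miRNAs past 2-fold (47 names) fell below it. No paired analysis was possible because each cell type had 1 library. For the same reason no replicate could be left out, and reads under 10 limit what the ratios of rare names can show.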
